A study of Mus musculus with 2 samples.

Results

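The B cell receptor complex and its coreceptors were followed through 8 genes of the 32228 counted, chosen by name: Cd79a, Cd79b, Ms4a1, Cr2, Fcer2a, Cd22, Bank1 and Fcmr. Their UMIs (unique molecular identifiers, 1 per captured transcript) were summed in B cells, plasma cells, T cells and myeloid cells of the colonic lamina propria (LP). The cells were CD45+ leukocytes of the C57BL/6 strain (C57BL/6 J in the methods), sorted from the colon after colitis had been induced with dextran sulfate sodium (DSS), given at 2.5% in drinking water for 7 or 8 days. The WT group was 1 library from 5 pooled wild-type mice, and the Ring1aKO group was 1 library from 5 pooled Ring1a knockout mice. Both groups received DSS, so neither is an untreated control, and the labels give an age of 8 to 10 weeks where the methods give 8 to 12 weeks. The mice were sex-matched littermates per the methods, and the study describes the knockout as whole-body, without giving the deleted part of the gene. With 1 library per genotype there was no replicate, so an effect of genotype cannot be told apart from one of the library, and values are compared without a test. All intervals cover counting error only, at 95%.

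The B cell receptor is a membrane immunoglobulin held by a heterodimer of CD79A and CD79B, whose cytoplasmic tails carry the signal after antigen binding. Coreceptors set the threshold of that signal: CR2 (CD21) binds complement-coated antigen beside CD81, while CD22 recruits phosphatases that dampen it. High CR2 is a feature of marginal-zone B cells, and CD23, encoded by Fcer2a, is a feature of follicular B cells.

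A barcode was kept with at least 1000 UMIs, at least 500 genes and less than 5% mitochondrial UMIs. This left 6005 barcodes in the library labelled WT, which held 74414511 UMIs in all, and 7918 in the library labelled Ring1aKO, which held 81862096, with medians of 6354 and 5035 UMIs, and 11 barcodes occurred in both. B cells were kept barcodes with at least 5 UMIs of Cd79a, Cd79b and Ms4a1 together, Jchain below 1% of UMIs and no Cd3e UMI. They numbered 1178 in the library labelled WT (19.6% of kept barcodes, 18.6 to 20.6) and 3611 in the library labelled Ring1aKO (45.6%, 44.5 to 46.7). Their median depth was close, at 4350.5 and 4396 UMIs. Ring1, the knocked-out gene, had 118 and 319 UMIs in these B cells, or 16.4 and 16.1 CPM (a gene's UMIs scaled to the UMIs of all genes in the same cells, as counts per 1000000). The log2 ratio, always Ring1aKO over WT, was -0.03 (-0.34 to 0.29). The Ring1 level in B cells therefore did not differ beyond counting error. It was lower in plasma cells labelled Ring1aKO, with 12.4 and 8.03 CPM (-0.62, -0.92 to -0.33), and in T cells, with 14.0 and 10.6 CPM (-0.41, -0.76 to -0.06). In plasma cells, 32.5% of the genes with at least 100 UMIs were likewise lower by at least 1.5-fold. In myeloid cells Ring1 had 11.78 and 9.835 CPM, with an interval that held 0 (-0.25, -0.71 to 0.18). Ring1 UMIs were thus present in every one of these classes of the library labelled Ring1aKO, and since the deleted part is not given, they could not be used to check the labels.

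Since 3 of the 8 genes chose the B cells, the class was checked with 7 B cell markers outside the set, among them Pax5, Ebf1, Ighd, Ly6d, Fcrla and Vpreb3. At least 3 UMIs of these markers were found in 99.7% (WT) and 99.8% (Ring1aKO) of the B cells. A class built from the 7 markers alone held 1299 and 3775 cells (21.6% and 47.7% of kept barcodes), of which 90.4% and 95.5% also met the first rule. Just inside the threshold, 44 and 64 barcodes had 5 UMIs of the 3 genes, and just outside it 36 and 50 had 4. Markers of other cell types were also found in the B cells, and none was at 0. The 7 T cell markers summed to 52.1 and 72.1 CPM (3131 and 3544 in T cells) and the 7 myeloid markers to 517 and 552 CPM (8134 and 18300 in myeloid cells). The 7 plasma cell markers summed to 834 and 873 CPM (4333 and 3492 in plasma cells), and the 5 plasmacytoid dendritic cell markers to 17.4 and 22.7 CPM. At least 5 UMIs of Lyz2, Csf1r, Cd68 and Csf3r were found in 47 (3.99%) and 81 (2.24%) of the B cells.

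Cd79a (ENSMUSG00000003379), the signalling chain of the receptor that also names the lineage, lies on chromosome 7 of GRCm38 from 24897381 to 24902197. Its level was 1551 CPM (1522 to 1580) in WT B cells and 2208 CPM (2188 to 2229) in Ring1aKO B cells, a log2 ratio of 0.51 (0.48 to 0.54). Cd79b (ENSMUSG00000040592, chromosome 11, 106311341 to 106314762), its partner in the heterodimer, stood at 445 CPM (430.0 to 461) and 539 CPM (529 to 549), a log2 ratio of 0.27 (0.22 to 0.33). Both chains were thus higher in the library labelled Ring1aKO, Cd79a by more than its partner. These values describe cells that the 2 genes helped to choose, and with the class built from the 7 other markers the log2 ratios were 0.59 for Cd79a and 0.35 for Cd79b.

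Ms4a1 (ENSMUSG00000024673, chromosome 19, 11249675 to 11266241) encodes CD20, a membrane protein of mature B cells that associates with the receptor. It went the other way, with 588 CPM (570.3 to 606) in WT and 455 CPM (445 to 464) in Ring1aKO, a log2 ratio of -0.37 (-0.42 to -0.32). Together the 3 genes of the class rule had 18539 UMIs in B cells labelled WT and 63284 in B cells labelled Ring1aKO. The share of Cd79a among them was 60.0% and 69.0%, that of Cd79b 17.2% and 16.8%, and that of Ms4a1 22.8% and 14.2%. The genes that define the class were therefore mixed differently in the 2 libraries.

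Cr2 (ENSMUSG00000026616, chromosome 1, 195136811 to 195176716) encodes complement receptor 2 and, in the mouse, also complement receptor 1. Its level was 187 CPM (177 to 197) in B cells labelled WT and 140.1 CPM (135 to 145) in B cells labelled Ring1aKO, a log2 ratio of -0.42 (-0.51 to -0.32). Fcer2a (ENSMUSG00000005540, chromosome 8, 3681737 to 3694175) encodes the low-affinity IgE receptor. It had 200.3 CPM (190.1 to 211) and 159 CPM (154 to 165), a log2 ratio of -0.33 (-0.42 to -0.24). Cr2 and Fcer2a thus shared a direction and were both lower in the library labelled Ring1aKO.

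Cd22 (ENSMUSG00000030577, chromosome 7, 30865402 to 30880342), the inhibitory sialic-acid-binding coreceptor, had 282 CPM (270.0 to 295) and 225 CPM (218 to 232), a log2 ratio of -0.33 (-0.40 to -0.25). Bank1 (ENSMUSG00000037922, chromosome 3, 136053363 to 136326066), a scaffold that brings Lyn to its substrates, had 420.4 CPM (405 to 436) and 372 CPM (363 to 380.2), a log2 ratio of -0.18 (-0.24 to -0.12). Fcmr (ENSMUSG00000042474, chromosome 1, 130865669 to 130880791), the Fc receptor for IgM, had 234 CPM (222 to 245) and 333 CPM (325 to 341), a log2 ratio of 0.51 (0.43 to 0.59). Fcmr was the only one of the 5 genes outside the class rule with a higher level in the library labelled Ring1aKO, and its ratio equalled that of Cd79a at 2 decimals. In the annotation, Ms4a1, Cd22 and Bank1 overlap the antisense genes 4930526L06Rik, Gm29439 and Gm31243. The kit reads the strand of the transcript, but the setting used for counting is not given in the sources used here.

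None of the 8 genes passed 1.5-fold in B cells. Among the 9253 genes with at least 100 UMIs in the B cells of both libraries together, 1.87% were higher and 17.5% lower by at least 1.5-fold, and 8 genes are too few to set a count of 0 apart from that background. The median log2 ratio of all those genes was -0.20, and that of the 8 genes -0.25. Against that shift, Bank1 lay at the middle, with 51.8% of genes at a lower ratio. Fcmr and Cd79a lay near the top, with 97.4% and 97.3% of genes at a lower ratio, and Cd79b followed with 91.0%. Cr2, Ms4a1, Fcer2a and Cd22 lay below the middle, with between 28.4% and 36.4% of genes at a lower ratio.

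**Figure D1:**
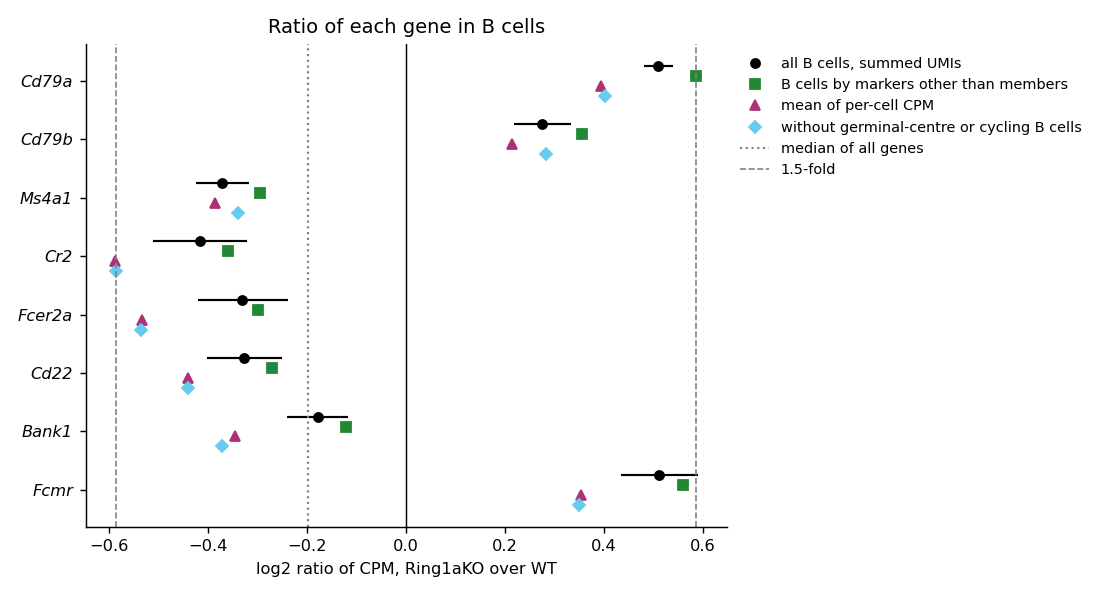
Log2 ratio of each gene in B cells, Ring1aKO over WT (x axis), with black points for all B cells (bars, 95% counting interval) and other symbols for 3 other ways to choose or weight the cells. Cd79a, Cd79b and Fcmr sit right of 0 and the other 5 genes left of it in each of the 4 ways, and the symbols of Cr2, Fcer2a and Bank1 spread most.

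How cells were weighted moved most of the 8 genes more than counting error did. With the mean of the per-cell CPM in place of summed UMIs, the log2 ratio of Cr2 was -0.59, that of Fcer2a -0.53 and that of Bank1 -0.34. Cd79a was then at 0.39, Cd79b at 0.21 and Fcmr at 0.35, each also outside its counting interval. Ms4a1 stayed inside its own, at -0.39. Over 14 alternatives, every one of the 8 genes stayed on its side of 0. Bank1 did not stay on 1 side of the median of all genes. It lay 0.02 above that median with summed UMIs, and at -0.18 from it with the mean of the per-cell CPM. The ranges were 0.39 to 0.59 for Cd79a, 0.21 to 0.35 for Cd79b, 0.33 to 0.56 for Fcmr, -0.44 to -0.29 for Ms4a1, -0.59 to -0.36 for Cr2, -0.60 to -0.26 for Fcer2a, -0.44 to -0.27 for Cd22 and -0.38 to -0.12 for Bank1.

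The depth of the cells went with these moves. B cells of both libraries were cut into a shallow, a middle and a deep group at 3925 and 5049 UMIs. In the shallow group, Fcer2a had 360.3 CPM labelled WT and 207 CPM labelled Ring1aKO, a log2 ratio of -0.80. In the deep group it had 114 and 119 CPM, a log2 ratio of 0.06 (-0.09 to 0.21). Bank1 went from -0.50 in the shallow group to 0.07 (-0.03 to 0.17) in the deep one, and Cr2 from -0.75 to -0.15 (-0.29 to 0.002). The intervals of Fcer2a, Bank1 and Cr2 thus held 0 in the deepest cells, and do not fix their direction there. Cd79a (0.29, 0.39 and 0.62), Cd79b (0.19, 0.20 and 0.32), Fcmr (0.30, 0.33 and 0.65) and Ms4a1 (-0.41, -0.32 and -0.42) kept theirs in all 3.

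A split made after the data were seen marked B cells with at least 2 UMIs of genes of the germinal-centre programme, among them S1pr2, Mef2b, Gcsam and Rgs13, or with a UMI of the proliferation gene Mki67. It marked 109 B cells labelled WT (9.25%, 7.66 to 11.0) and 131 labelled Ring1aKO (3.63%, 3.04 to 4.29), with median depths of 12273 and 12379 UMIs. Of these, 94.5% and 83.2% were in the deep group, a share that the rule partly fixes, since deeper cells reach a given number of UMIs more easily. Scaled to all UMIs, the marked cells had low levels of Cr2, Fcer2a and Bank1 in both libraries. Cr2 stood at 66.6 and 45.2 CPM in them, against 228 and 152 CPM in the other B cells. Fcer2a stood at 53.4 and 51.2 CPM against 250.1 and 173 CPM, and Bank1 at 115 and 97.7 CPM against 524 and 405 CPM. By CPM, Cd79a was lower in them too, with 924 against 1763 CPM labelled WT and 1220 against 2330 CPM labelled Ring1aKO. The other B cells had median depths of only 4193 and 4354.5 UMIs, so a lower CPM need not mean fewer UMIs per cell. In the library labelled WT, Cr2 had 121 UMIs in the 109 marked cells and 1220 in the 1069 others, about as many per cell. Bank1 had 208 and 2808 UMIs there, fewer per cell, and Cd79a 1678 and 9448, more per cell. Cd79b and Ms4a1 differed less in the library labelled WT, with 453 against 443 CPM and 579 against 591 CPM. In the library labelled Ring1aKO, Cd79b had 541 against 539 CPM and Ms4a1 354 against 467 CPM.

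Without the marked cells, 1069 and 3480 B cells remained, and the gap between the libraries was wider for Cr2, Fcer2a, Cd22 and Bank1. The log2 ratio was -0.59 (-0.68 to -0.49) for Cr2, -0.53 (-0.63 to -0.44) for Fcer2a, -0.44 (-0.52 to -0.36) for Cd22 and -0.37 (-0.43 to -0.31) for Bank1. It was smaller for Cd79a, at 0.40 (0.37 to 0.43), and for Fcmr, at 0.35 (0.27 to 0.43). Ms4a1 stayed at -0.34 (-0.40 to -0.28) and Cd79b at 0.28 (0.22 to 0.35). Among the 8 genes, Cr2 alone then passed 1.5-fold, next to the limit. The share of all genes past 1.5-fold was not counted in these cells, so Cr2 is not set apart from it. Over all B cells, 1.87% of genes were higher and 17.5% lower.

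To compare shares of cells at 1 depth, each cell was thinned to 2000 UMIs, which left out 4 B cells labelled WT and 21 labelled Ring1aKO. A Cd79a UMI was then found in 94.2% of WT B cells (92.7 to 95.5) and 97.6% of Ring1aKO B cells (97.0 to 98.0), and in 2.80% and 10.3% of T cells, which should lack it. Ms4a1 was found in 67.0% (64.3 to 69.7) and 57.5% (55.9 to 59.1), against 0.801% and 2.44% of T cells. Cd22 was found in 46.7% (43.8 to 49.6) and 38.0% (36.4 to 39.6), and Fcmr in 41.1% (38.2 to 43.9) and 47.2% (45.5 to 48.8). Cd79b was found in 55.9% and 59.3% of B cells and Bank1 in 60.8% and 55.3%. Detection moved in the direction of the level for all 8 genes. Unthinned, Cr2 was found in 53.2% and 43.7% of B cells and Fcer2a in 53.5% and 45.8%, and thinned in 31.9% and 23.4%, and in 33.6% and 26.2%. The median B cell had UMIs of 4 of the 8 genes in either library.

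Cr2 and Fcer2a were also read in the same cells. Both were found in 12.9% of thinned WT B cells (11.0 to 14.9) and in 7.24% of thinned Ring1aKO B cells (6.42 to 8.14). Cr2 without Fcer2a, the combination nearest to a marginal-zone pattern, was found in 19.0% (16.8 to 21.4) and 16.2% (15.0 to 17.4). Fcer2a without Cr2 was found in 20.7% (18.4 to 23.1) and 19.0% (17.7 to 20.3), and neither in 47.4% (44.6 to 50.3) and 57.6% (56.0 to 59.2). The double-positive share differed most in proportion, and the intervals of both single-positive shares overlapped between the libraries. Each gene by itself was found in fewer Ring1aKO cells (Cr2 in 31.9% and 23.4%, Fcer2a in 33.6% and 26.2%). That alone lowers the share with both. Whether the double-positive share was lower than these 2 shares bring was not tested. Among B cells with a Cr2 UMI, Fcer2a was found in 40.4% and 31.0%, against 30.4% and 24.8% of those without one. Fcer2a was therefore found more often beside a Cr2 UMI than without one, although cells with 1 of the 2 genes outnumbered those with both in each library. At this depth a cell without a UMI cannot be called negative.

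**Figure D2:**
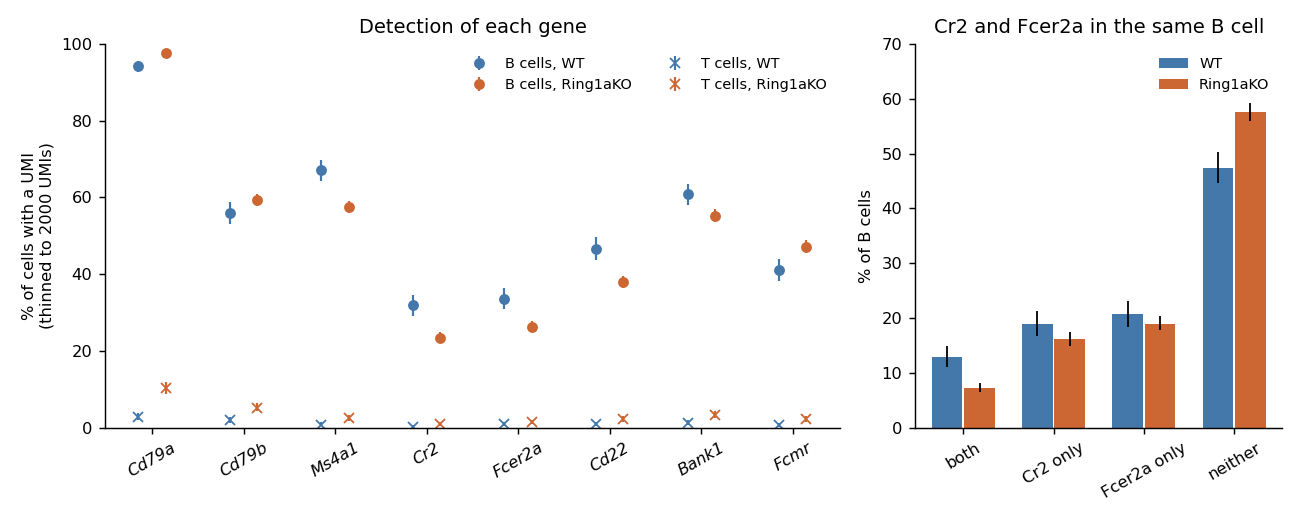
Left, share of cells with a UMI of each gene after thinning to 2000 UMIs (y axis, percent) for B cells (circles) and T cells (crosses), with exact 95% intervals as bars. Right, share of B cells by Cr2 and Fcer2a UMIs in the same cell, where both genes were found in 12.9% of WT cells and 7.24% of Ring1aKO cells.

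The other follicular features did not move as a block with Fcer2a. Of 10 follicular genes measured, Fcer2a included, 0 were higher and 2 were lower by at least 1.5-fold, with a list median of -0.05. That is 2 of 10 beside 17.5% of all genes lower, a share near the background. The 2 were Cd55, a complement regulator, at 192 and 125 CPM (-0.62, -0.71 to -0.52), and Bach2, a repressor of plasma cell fate, at 156 and 103 CPM (-0.60, -0.70 to -0.49). Ccr7, the chemokine receptor that guides cells to lymphoid T zones, had 551 and 777 CPM (0.50, 0.45 to 0.55). Ighd, the heavy chain of the naive B cell receptor, had 582 and 587 CPM (0.01, -0.04 to 0.06). Cxcr5, the receptor for the follicular chemokine, had 144 and 148 CPM (0.03, -0.07 to 0.14).

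Of 11 marginal-zone genes measured of 12 listed, Cr2 included, 0 were higher and 2 were lower by at least 1.5-fold, with a list median of -0.30. Here too, 2 of 11 is near the 17.5% of all genes. Plac8 had 1069 and 540.4 CPM (-0.98, -1.03 to -0.94), and Cd36, a scavenger receptor, 9.90 and 5.72 CPM (-0.80, -1.23 to -0.34). Cd1d1, which presents lipids, had 12.4 and 12.5 CPM (0.00, -0.34 to 0.38). S1pr3 had 5.02 and 4.15 CPM (-0.30, -0.86 to 0.33), an interval that does not fix its direction. Dtx1, a regulator and target of Notch signalling, went against Cr2 with 58.7 and 83.5 CPM (0.51, 0.35 to 0.67).

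The germinal-centre list had the lowest median of the lists. Of its 8 genes, 7 were lower by at least 1.5-fold in B cells labelled Ring1aKO, beside 17.5% of all genes. Of the 8, 0 were higher, beside 1.87% of all genes, and the list median was -1.87. Rgs13, a regulator of G protein signalling, had 37.9 and 7.34 CPM. The B1 and memory list had 6 of 8 genes lower and 0 higher, beside the same shares of all genes, with a median of -1.09. Nt5e, which encodes CD73, had 31.6 and 9.97 CPM, and Cd80, a costimulatory ligand, 14.8 and 5.57 CPM.

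The signalling genes next to the receptor were measured in full. Of 16 genes of proximal signalling, 1 was higher and 0 were lower by at least 1.5-fold, beside 1.87% of all genes higher and 17.5% lower. The list median was -0.19, close to that of all genes. The 1 was Cd81, the tetraspanin of the CR2 coreceptor, at 72.5 and 112 CPM (0.63, 0.49 to 0.77). The kinases Lyn (213 and 187 CPM, -0.19), Syk (311 and 274 CPM, -0.19) and Btk (83.8 and 67.8 CPM, -0.31) and the phospholipase Plcg2 (110.4 and 88.9 CPM, -0.31) were below 0. Blk (146 and 153 CPM, 0.06) and the adaptor Blnk (197 and 204 CPM, 0.05) had intervals that held 0.

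Of 12 inhibitory receptors and phosphatases, 0 were higher and 4 were lower by at least 1.5-fold, with a list median of -0.03. Among all genes, 1.87% were higher and 17.5% lower. The 4 were Cd300lf (35.8 and 15.4 CPM, -1.22), Pirb (35.96 and 17.96 CPM, -1.003), Lair1 (10.6 and 5.46 CPM, -0.96) and Fcrl5 (18.4 and 10.1 CPM, -0.87). The first 3 of these are also receptors of myeloid cells. Of the 7 myeloid markers in B cells, 4 were also lower by at least 1.5-fold and 1 was higher, with a list median of -0.62. Lyz2, a myeloid gene outside that list, had 407 and 143 CPM in B cells and 1487 and 499.8 CPM in cell-free barcodes, whereas S100a8, a neutrophil gene of the list, had 166 and 322 CPM in B cells. Of the other marker lists, 3 of 5 T cell genes and 1 of 2 plasmacytoid dendritic cell genes measured were higher, and 1 of 6 plasma cell genes was lower. The share of all genes beside these counts, and beside that of the myeloid markers, is again 1.87% higher and 17.5% lower. B cells with at least 5 myeloid, 3 T cell or 3 Siglech UMIs were then left out, while B cells with fewer such UMIs stayed in. In the remaining 1121 and 3494 cells, 3 of 26 pathway genes measured passed 1.5-fold (Cd81, Fcrl5 and Cd300lf) in place of 5 of 28. The share of all genes was not counted in these remaining cells. Pirb then had 14.5 and 9.87 CPM (-0.56, -0.92 to -0.17). Lair1 fell under the limit of 100 UMIs with 75 UMIs in both libraries together, at a log2 ratio of -0.91 (-1.595 to -0.17). The part that myeloid transcripts have in the other values was not tested. Of other inhibitors of the receptor, Siglecg had 137 and 145 CPM (0.08, -0.02 to 0.19) and Cd72 197 and 226 CPM (0.20, 0.11 to 0.29). The phosphatase Ptpn6, which CD22 recruits, was below 0 as Cd22 was, with 180.2 and 166 CPM (-0.12, -0.21 to -0.03).

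The transcription factors that set B cell identity had 0 of 10 genes past 1.5-fold, beside 1.87% of all genes higher and 17.5% lower, with a median of -0.16. Ebf1 had 1308 and 1578 CPM (0.27, 0.24 to 0.31) and Pax5 285 and 230.5 CPM (-0.31, -0.38 to -0.23), on opposite sides of 0 as Cd79a and Ms4a1 were. The immediate-early genes, which respond to receptor signals and to tissue digestion, had 0 of 9 past 1.5-fold and a median of 0.02. Neither list is long enough to set a count of 0 apart from that background. Within each library, B cells at or above the pooled median share of immediate-early UMIs had less Cd79b than the rest, by a log2 ratio of -0.41 in WT and -0.44 in Ring1aKO, and more Fcer2a, by 0.60 and 0.13. Between the libraries, Fcer2a differed by -0.61 in the cells at or above that median and by -0.14 in those below it. The cells on either side of that median were not matched for depth, with which the Fcer2a ratio also moved. Digestion, signalling and depth were not told apart here.

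**Figure D3:**
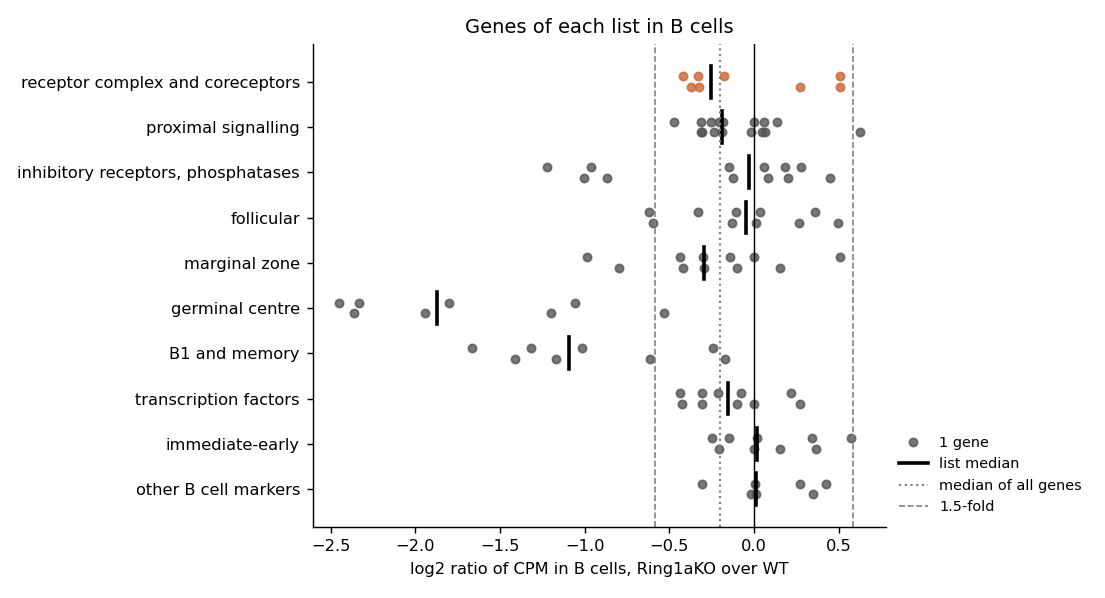
Log2 ratio in B cells, Ring1aKO over WT (x axis), of each measured gene of 10 lists, with a black bar at each list median and a dotted line at the median of all genes, -0.20. The 8 receptor and coreceptor genes (orange) lie inside the 1.5-fold lines, and the germinal-centre and the B1 and memory lists lie furthest to the left.

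The sequences upstream of 2 genes that were higher (Cd79a and Fcmr) and 2 that were lower (Cr2 and Fcer2a) are shown because these genes are used by the same cells yet differed in direction. Each is the RefSeq promoter window of 300 bases on GRCm38.p6, from 250 bases before to 50 after a start, and is read along the gene: chr7:24897247-24897546 (plus strand) for Cd79a, chr1:130865527-130865826 (plus) for Fcmr, chr1:195176670-195176969 (minus) for Cr2 and chr8:3694125-3694424 (minus) for the first of 3 starts of Fcer2a. Capitals mark ATGCAAAT (the octamer), GGAAGT (an ETS core), CAGGTG (an E-box of E2A) or CCCNNGGG (an EBF half-site pair), searched on both strands, and no match overlapped another.
Cd79a: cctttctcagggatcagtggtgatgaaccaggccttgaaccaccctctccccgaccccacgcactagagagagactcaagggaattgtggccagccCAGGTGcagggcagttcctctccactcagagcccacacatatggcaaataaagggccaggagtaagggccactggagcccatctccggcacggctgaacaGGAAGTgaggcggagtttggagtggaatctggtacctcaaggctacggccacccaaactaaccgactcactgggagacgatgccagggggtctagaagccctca
Fcmr: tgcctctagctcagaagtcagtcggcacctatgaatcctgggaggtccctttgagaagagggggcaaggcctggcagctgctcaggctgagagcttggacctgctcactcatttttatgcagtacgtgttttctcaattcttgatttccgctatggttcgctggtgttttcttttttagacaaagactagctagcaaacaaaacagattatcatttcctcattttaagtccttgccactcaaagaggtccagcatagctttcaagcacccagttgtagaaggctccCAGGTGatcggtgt
Cr2: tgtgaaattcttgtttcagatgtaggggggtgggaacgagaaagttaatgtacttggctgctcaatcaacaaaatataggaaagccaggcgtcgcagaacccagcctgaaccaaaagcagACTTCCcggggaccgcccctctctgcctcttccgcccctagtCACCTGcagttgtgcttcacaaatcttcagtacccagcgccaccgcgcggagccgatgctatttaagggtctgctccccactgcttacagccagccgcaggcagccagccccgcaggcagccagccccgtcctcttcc
Fcer2a: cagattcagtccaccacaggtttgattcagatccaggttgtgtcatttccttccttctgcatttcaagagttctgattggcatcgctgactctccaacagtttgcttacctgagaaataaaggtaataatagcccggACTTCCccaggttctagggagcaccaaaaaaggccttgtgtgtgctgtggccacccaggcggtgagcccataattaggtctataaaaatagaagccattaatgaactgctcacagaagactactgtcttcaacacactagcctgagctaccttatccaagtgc
Cd79a and Cr2 each held 1 ETS and 1 E2A match, Fcmr 1 E2A match and Fcer2a 1 ETS match. A link between the matches and the direction of a gene was not tested. None of the 4 windows held the octamer or the EBF letters. Only these exact letters were searched, so a window without a match is not shown to lack a site of that factor. Of 32851 promoter windows, 23.8% held the ETS letters, 20.2% those of E2A, 13.7% those of EBF and 1.74% the octamer. A match of 6 letters is common, and it is a description of the sequence only. Windows were found for 6 of the 8 genes. Cd22 and Bank1, also lower, each held 1 E2A and 1 EBF match, and Bank1 1 ETS match as well. Cd79b and Ms4a1 had no window.

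In plasma cells (Jchain at least 1% of UMIs, no Cd3e), of which there were 671 and 619, the receptor chains remained and the coreceptors were near 0. Cd79a had 389 CPM (380.3 to 398) and 475 CPM (466 to 485), a log2 ratio of 0.29 (0.25 to 0.33). Cd79b had 128 CPM (123 to 133) and 116 CPM (111 to 121), a log2 ratio of -0.14 (-0.22 to -0.06). The other 6 genes had between 1.49 and 8.75 CPM in either library. Of the UMIs of all 8 genes in plasma cells, Cd79a held 72.5% labelled WT and 76.5% labelled Ring1aKO, and Cd79b 23.8% and 18.6%. After thinning to 2000 UMIs, Cd79a was found in 52.3% and 62.3% of plasma cells and Cd79b in 24.1% and 26.8%, against at most 10.3% in T cells.

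Of the other 6 genes, Fcmr differed most in plasma cells, with 30 UMIs (1.49 CPM) labelled WT and 104 (5.32 CPM) labelled Ring1aKO, a log2 ratio of 1.80 (1.24 to 2.47). Bank1 followed with 73 and 134 UMIs, a log2 ratio of 0.91 (0.49 to 1.35). These 2 of 8 genes were higher and 0 were lower by at least 1.5-fold. Of 8538 genes with at least 100 UMIs in the plasma cells of both libraries together, 1.25% were higher and 32.5% lower. Cr2, with 31 and 37 UMIs, was below that limit and is not among the 8538. The naive B cell transcript Ighd moved with them in plasma cells, from 3.68 to 12.0 CPM. Plasma cells with at least 3 UMIs of Pax5, Ebf1, Ighd and Fcrla made up 18.6% labelled WT and 25.8% labelled Ring1aKO, and their median depth was higher, at 31209 and 38315.5 UMIs against 27134 and 30344. In the rest of the plasma cells, Fcmr stood at 0.827 and 2.44 CPM and Bank1 at 1.34 and 3.28 CPM. The share of these UMIs that came from B cell RNA was not tested.

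T cells had a Cd3e UMI, at least 3 UMIs of Cd3d, Cd3e and Cd3g, and Jchain below 1% of UMIs. They also had fewer than 5 UMIs of Lyz2, Csf1r, Cd68 and Csf3r. T cells numbered 1498 and 1691, with median depths of 5938 and 5886 UMIs. Cd79a, which T cells do not use, stood at 37.7 CPM (34.1 to 41.6) in WT T cells and 135 CPM (128 to 141) in Ring1aKO T cells, a log2 ratio of 1.83 (1.68 to 1.998). All 8 genes were higher in T cells labelled Ring1aKO, with log2 ratios from 0.92 for Fcer2a to 1.83 for Cd79a. The share of all genes that were higher in T cells was not counted, so these 8 are not set apart from it. Cell-free barcodes, those with fewer than 100 UMIs, held 284 CPM and 699 CPM of Cd79a. The T cell level of Cd79a was 13.3% and 19.3% of that in the cell-free RNA, whereas that of Igha, an abundant plasma cell transcript, was 3.12% and 3.83%. The class rule partly fixes this gap. It removes droplets with much Jchain, and so with much plasma cell RNA, but sets no limit on B cell UMIs. The same Jchain limit applies to the Igha shares given below.

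The Cd79a UMIs sat in few T cells. No Cd79a UMI was found in 93.3% of WT T cells and 81.1% of Ring1aKO T cells, and 1 UMI in 4.34% and 11.2%. At least 5 UMIs were found in 25 (1.67%) and 108 (6.39%) T cells, and these cells held 76.1% and 85.7% of all Cd79a UMIs of the class. Few T cells lay between, with 2 UMIs in 5 and 15 cells and 3 or 4 UMIs in 6 and 6.

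T cells with at least 5 UMIs of Cd79a, Cd79b and Ms4a1 numbered 28 (1.87%, 1.25 to 2.69) and 114 (6.74%, 5.59 to 8.04). Their median depth was 10877.5 and 10432.5 UMIs, against 5893.5 and 5687 in the other T cells. They held all 8 genes at between 29.0% and 65.3% of the B cell level in the library labelled WT and between 41.4% and 55.7% in the library labelled Ring1aKO. The 5 genes that did not choose these cells were among them, with Bank1 at 167 CPM in both libraries and Cd22 at 116 and 108 CPM. In the library labelled WT these droplets also held 18 UMIs of Siglech, a plasmacytoid dendritic cell gene, and in the library labelled Ring1aKO they held 0, with an upper Poisson bound of 2.69 CPM. Whether these droplets hold more than 1 cell was not tested.

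The remaining T cells, 1470 and 1577, held fewer than 5 UMIs of the 3 genes each, so their levels of Cd79a, Cd79b and Ms4a1 were capped by that rule and are given as a description. Cd79a stood at 8.28 CPM (6.60 to 10.2) and 19.96 CPM (17.4 to 22.8), which is 2.92% and 2.85% of the cell-free level, beside 2.96% and 3.85% for Igha in the same cells. The log2 ratio between the libraries was 1.26, and that of the cell-free Cd79a itself was 1.30. Cd79b, at 9.06% and 6.64% of its cell-free level, stood above the Igha share in both libraries, and Ms4a1, at 1.09% and 2.60%, below it. Of the 5 genes that the rule did not use, Bank1 (8.29% and 4.91%) and Cd22 (5.64% and 4.49%) stood above the Igha share in both libraries. Fcer2a (5.82% and 3.76%), Fcmr (5.15% and 3.40%) and Cr2 (3.37% and 2.12%) stood above it in the library labelled WT and below it in the library labelled Ring1aKO. The 5 genes had between 8 and 51 UMIs per library in these cells, and the shares are point values. Counting error reaches the Igha share for Cr2 and Fcmr labelled WT. It also does so for Bank1, Cd22, Fcer2a and Fcmr labelled Ring1aKO.

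**Figure D4:**
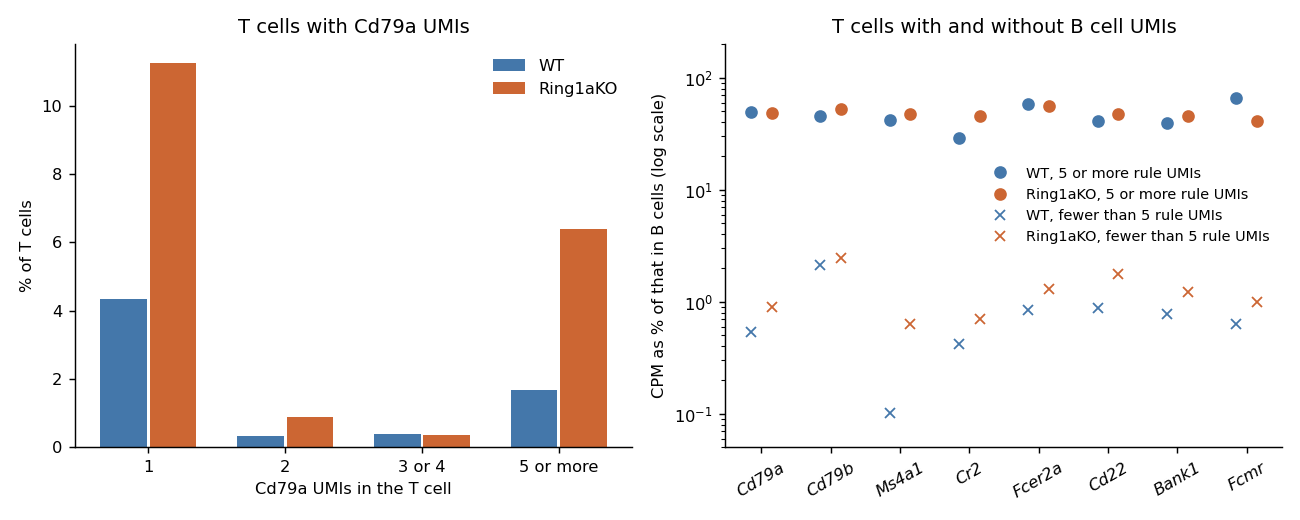
Left, share of T cells (y axis, percent) with 1, 2, 3 or 4, or at least 5 Cd79a UMIs. Right, CPM of each gene in T cells as a percent of its CPM in B cells (log axis), where T cells with at least 5 UMIs of Cd79a, Cd79b and Ms4a1 (circles) stand between 29.0% and 65.3% and the other T cells (crosses) at most at 2.45%.

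Myeloid cells (1326 and 737) had the lowest level of each gene among the 4 classes in the library labelled WT, where Cd22 was level with plasma cells, and of each but Cr2, Cd22 and Bank1 in the library labelled Ring1aKO. Cd79a had 76 UMIs (5.89 CPM, 4.64 to 7.37) and 127 UMIs (20.2 CPM, 16.8 to 24). These are 0.678 and 0.621 of the UMIs that the cell-free profile would bring at the share set by Igha in the same cells. Barcodes with at least 5 UMIs of Cd79a, Cd79b and Ms4a1 had gone to the B cells first. The levels of these 3 genes were therefore capped by that rule and are given as a description. Cd22 stood above the Igha share, with 46 and 49 UMIs at 2.67 and 1.90 times the amount. Of the other genes, Bank1 stood at 1.61 and 1.65 times it and Cd79b at 1.58 and 1.08 times it, Ms4a1 at 0.936 and 0.742 and Cr2 at 0.758 and 1.32, and Fcer2a and Fcmr were below it in both libraries. For Ms4a1, Cr2, Fcer2a and Fcmr in both libraries, and Cd79b labelled Ring1aKO, counting error reaches the Igha share. Myeloid cells that met the B cell rule were counted as B cells. With these 47 and 81 barcodes put back, Cd79a had 631 and 1027 UMIs (45.8 and 140.3 CPM). The order of the classes rests on that rule, and so does the Cd79a value beside the Igha share. Among smaller classes, innate lymphoid and NK cells (472 and 380) had 32 and 35 UMIs of Cd79b, 3.35 and 1.35 times the Igha share, and plasmacytoid dendritic cells (35 and 17) had 7 and 13. In the innate lymphoid and NK cells labelled Ring1aKO, counting error of Cd79b reaches the Igha share.

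**Figure D5:**
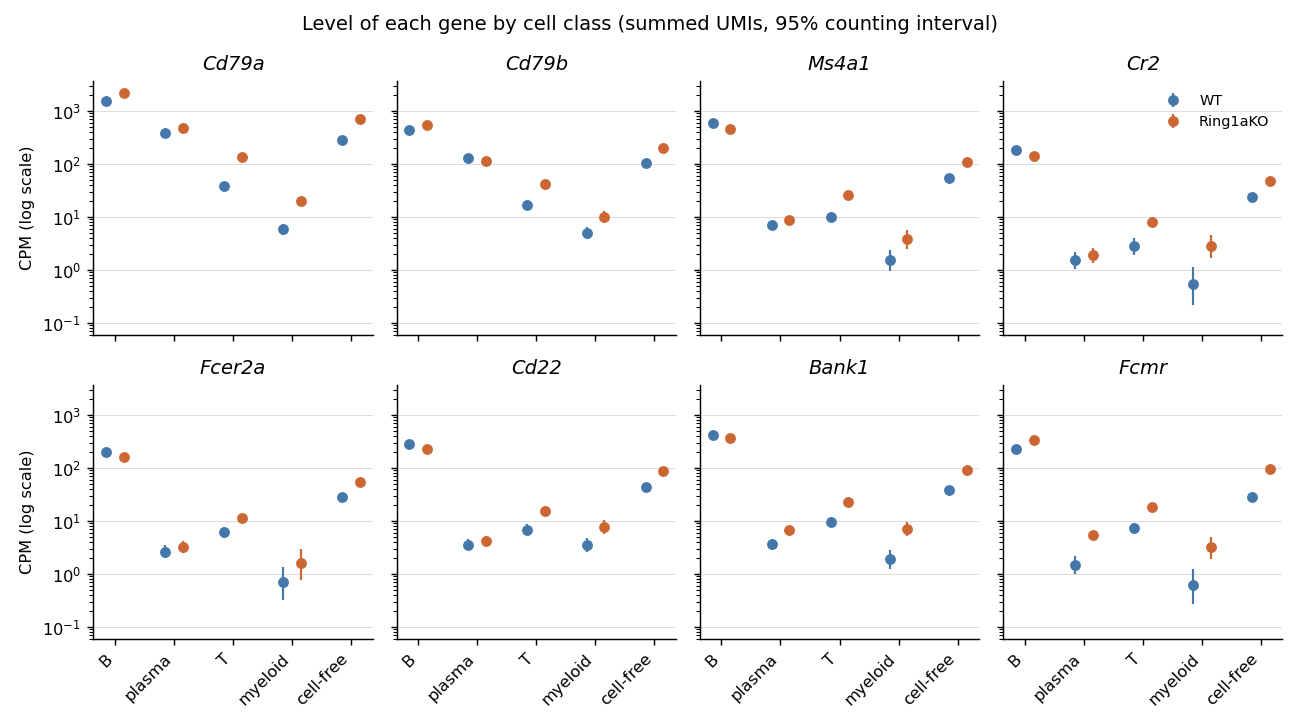
CPM of each gene (y axis, log scale) in B, plasma, T and myeloid cells and in cell-free barcodes, with 95% Poisson intervals as bars and 1 point per library. All 8 genes are highest in B cells, Cd79a and Cd79b are next highest of the cell classes in plasma cells, and the cell-free level is higher in Ring1aKO for every gene.

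Across classes, Cd79a, Cd79b and the coreceptors had different neighbours. Over 14 profiles (7 classes in each library, which share their library's cell-free RNA, and some of which have few cells), the genes most like each member by Pearson's r of log2(CPM + 1) were read as a description. Cd79a was most like Vpreb3 (r = 0.96), one of the B cell markers outside the set, and Bend5 (0.94). Cd79b was most like Tnfrsf13c (0.96), the BAFF receptor, and Eif2ak3 (0.92), a sensor of endoplasmic reticulum stress. Bank1, Cd22 and Fcmr were most like Ebf1 (0.97, 0.94 and 0.97), with Fcrl1 (0.96), Scd1 (0.93) and Ffar1 (0.96) in second place. Cr2 was most like Bfsp2 (0.96) and Chst3 (0.93), Fcer2a most like Ffar1 (0.97) and Gm31243 (0.96), and Ms4a1 most like Ffar1 (0.96) and BC051142 (0.95).

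Detection of Ighd was used as a further split within each library. Ighd was found in 66.01% and 67.08% of thinned B cells. Fcmr was higher in the cells with Ighd than in those without, with 361 against 178 CPM in WT and 425 against 276 CPM in Ring1aKO, log2 ratios of 1.01 (0.75 to 1.30) and 0.62 (0.49 to 0.75). Fcer2a was higher in them by 0.61 and 0.55, Cd22 by 0.41 and 0.52, and Bank1 by 0.75 and 0.19. Between the libraries, Bank1 stood at -0.53 (-0.64 to -0.42) in cells with Ighd and at 0.03 (-0.16 to 0.22) in cells without, a difference between the groups that was not tested. The other 7 genes kept their direction in both groups.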

How the data were processed

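The authors counted UMIs per gene and barcode with Cell Ranger and deposited unfiltered matrices of raw counts, with no normalization, for both libraries. The study's methods name mm10, whereas the submitters' processing notes name Cell Ranger 6.0.2 and mm39, and the file header names software version 4, so the build behind the counts is uncertain. Gene positions come from GENCODE on GRCm38, and promoter windows from RefSeq.

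The depth was 74414511 UMIs (WT) and 81862096 (Ring1aKO). Classes were exclusive and assigned in the order B, plasma, T, myeloid, mast, plasmacytoid dendritic, and innate lymphoid or NK cells. No doublet caller was run. UMIs were summed over a class and scaled to its total (CPM), with exact Poisson intervals. Shares have exact Clopper-Pearson intervals, and log2 ratios, with 1 UMI added to each sum, have intervals conditional on the counts. Lists counted genes with at least 100 UMIs in B cells and a ratio of at least 1.5-fold. Cells are not replicates, so no test between genotypes was made. The genes named are the 8 members, the genes of 13 lists and the 2 most like each member across classes. Members and lists were chosen with earlier results of these data known. The ratio was tested on simulated data. The alternatives were other depth, mitochondrial and class limits, B cells without mixed or the deepest droplets, other denominators, thinning to 2000 UMIs, subtraction of the cell-free profile and, chosen after seeing the data, B cells without germinal-centre or cycling cells. Some genes counted in the lists and classes are not reported here by name. Python 3.11.15, numpy 2.4.6, scipy 1.17.1, pandas 2.3.3 and matplotlib 3.10.9 were used.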

Additional observations from a re-analysis of the deposited data

Results flagged for a closer look

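For 3 of the 8 genes the log2 ratio between the libraries had opposite directions in plasma cells and B cells, with both intervals clear of 0. Cd79b was at -0.14 in plasma cells and 0.27 in B cells, Ms4a1 at 0.34 and -0.37, and Bank1 at 0.91 and -0.18. The plasma cell interval of Ms4a1 (0.007 to 0.67) only just cleared 0. The difference between the classes was not tested, since each library is 1 pool. How many of all genes had opposite directions was not counted. By at least 1.5-fold, 17.5% of all genes were lower and 1.87% higher in B cells, and 32.5% and 1.25% in plasma cells. Bank1 lay at the middle of all genes in B cells, with 51.8% at a lower ratio. Ms4a1 and Bank1 had at most 8.75 and 6.86 CPM in plasma cells, where Ighd moved with them, and Cd79b had 128 and 116 CPM.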

How the results depend on the processing

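No paired analysis was possible because 1 library stands for each genotype. The B cell share kept its direction under 9 alternatives, and its log2 ratio went from 1.22 to 1.40 when B cells needed 10 UMIs (14.6% and 38.4% of kept barcodes). The count of genes past 1.5-fold was 0 of 8, and became 1 under 4 alternatives: Cd79a (0.59) with B cells by markers outside the set, Cr2 (-0.59) with the mean of the per-cell CPM, Fcer2a (-0.60) after thinning, and Cr2 (-0.59) without germinal-centre or cycling cells, a choice made after seeing the data. These values lie next to the limit, so which gene passes depends on the setting. Beside all counts in this paragraph, 1.87% of all genes were higher and 17.5% lower by at least 1.5-fold in the main setting. The share of all genes under the alternatives was not counted. Follicular and marginal-zone genes past 1.5-fold numbered 4 of 21 measured, near that background, and between 3 and 6 under the alternatives. Genes of the receptor pathway numbered 5 of 28 measured, and between 3 and 7 under the alternatives, with 3 of 26 without mixed droplets and 7 without germinal-centre or cycling cells. The log2 ratio of Cd79a in T cells was 1.83, and 1.26 without T cells with 5 or more B cell UMIs and 2.09 with the mean of the per-cell CPM. Counting depth limits genes below a few CPM, such as Cr2 in innate lymphoid cells with 1 UMI per library, and the absence of replicates limits all comparisons.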

Other observations

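Barcodes outside the named classes also held the 8 genes. They numbered 815 (13.6% of kept barcodes) labelled WT and 832 (10.5%) labelled Ring1aKO. Cd79a stood at 148 and 362 CPM in them and Fcmr at 14.4 and 35.6 CPM. Mast cells, 10 and 31, had 1 and 9 Cd79a UMIs and 2 Cr2 UMIs in each library. In cell-free barcodes all 8 genes were higher in the library labelled Ring1aKO, Fcmr at 28.7 and 97.8 CPM and Cr2 at 23.4 and 46.7 CPM. The B cell share of kept barcodes moved with them, at 19.6% and 45.6%. The share of all genes that were higher in cell-free barcodes was not counted.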
